A study of Mus musculus with 24 samples.

Results

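The genes described here are the immediate early genes Fos, Fosb, Jun, Junb, Atf3, Egr1, Egr2, Nr4a1, Ier2 and Dusp1, taken as the probe sets whose single annotated symbol is one of these names. Each of the 10 genes had exactly 1 probe set, and together they are 10 of the 19494 genes that the array names. Their log2 RMA intensities were read in all 24 samples, one by one, with and without mouse 106. Mouse 106 was singled out because earlier results of these data had shown its values, so its levels are given as a description with no test.

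The samples are inguinal subcutaneous fat and visceral fat of 12 mice, 1 array each, and every mouse gave both depots. The aP2-Tagln2 mice carry Tagln2, an actin-binding protein gene, under the name of the aP2 promoter, which is that of the adipocyte gene Fabp4 and is known to be active also in some other cells such as macrophages. They were the females 60, 135 and 173 and the males 106, 130 and 158. The wild-type mice were the females 140, 169 and 170 and the males 159, 161 and 162, so genotype, sex and depot give 8 groups of 3 samples. No treatment is named for any group, and age, strain, litter and the time from death to freezing are not given in the sources used here. The label epididymal is used for the visceral depot of both sexes. Whether mice of a group came from separate cages or days is not stated, so p-values measure the spread between these animals.

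Immediate early genes are transcribed within minutes of a stimulus from factors already present in the cell, without new protein synthesis. Signals through ERK, p38, JNK and cyclic AMP reach the serum response factor SRF with its ETS partners, and CREB, at the promoters of these genes, and the transcripts are short-lived. In tissue, growth factors, adrenergic signals, cytokines, mechanical stress and the handling of the tissue before it is frozen are all known to raise them. Fos and Fosb dimerise with Jun and Junb to form AP-1, Atf3 is a stress-induced relative that binds CRE and AP-1 sites, Egr1 and Egr2 are zinc finger factors, Nr4a1 is an orphan nuclear receptor, Ier2 is a small nuclear protein, and Dusp1 is the phosphatase that switches p38 and JNK off.

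Promoter stretches of 4 genes are shown because they hold the elements through which CREB and SRF act. They are from RefSeq on GRCm38.p6, read in the direction of the gene, and end at the base before an annotated start of transcription. Capitals mark the cyclic AMP response element TGACGTCA or its core TGACG, also where it lies on the other strand, the CArG box of SRF in Egr2, and the TATA box TATAAA in Fos. The stretches lie at chr12:85473740-85473889 on the plus strand (Fos), chr10:67537719-67537868 on the plus strand (Egr2, from 1 of its annotated starts), chr15:101266696-101266845 on the plus strand (Nr4a1) and chr17:26508473-26508622 on the minus strand (Dusp1).
Fos: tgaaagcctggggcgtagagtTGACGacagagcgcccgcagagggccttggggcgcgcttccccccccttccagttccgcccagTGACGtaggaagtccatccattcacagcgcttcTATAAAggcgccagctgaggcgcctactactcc
Egr2: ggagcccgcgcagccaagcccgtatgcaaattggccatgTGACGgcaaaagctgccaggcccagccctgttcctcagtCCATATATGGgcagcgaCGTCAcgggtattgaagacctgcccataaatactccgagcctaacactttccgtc
Nr4a1: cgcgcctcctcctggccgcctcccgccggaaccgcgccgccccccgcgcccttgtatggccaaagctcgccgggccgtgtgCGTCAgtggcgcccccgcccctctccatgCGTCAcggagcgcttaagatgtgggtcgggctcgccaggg
Dusp1: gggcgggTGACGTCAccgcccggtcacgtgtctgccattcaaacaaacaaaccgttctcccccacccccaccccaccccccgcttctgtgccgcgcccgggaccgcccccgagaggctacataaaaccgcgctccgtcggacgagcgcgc
In Fos the cores begin 129 and 66 bases before the start and the TATA box 33 bases before it. In Egr2 the CArG box begins 72 bases before the start, between cores at 111 and 55. Nr4a1 has cores at 69 and 40 bases, and Dusp1 has the full element at 143.

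The promoter table held 8 of the 10 genes, and the 250 bases before each start were searched on both strands. The core TGACG was found in 7 of the 8 (Jun was without it), against 19.8% of all 27025 genes in the table. The full element TGACGTCA, which contains the core on both strands, was in 1 of the 8 (Dusp1) and in 1.77% of all genes. The CArG box was in 1 of the 8 (Egr2) and in 1.62% of all genes, and TATAAA in 1 of the 8 (Fos) and in 14.3%. The EGR motif GCGNGGGCG was in 2 of the 8, Fosb and Nr4a1, against 5.33% of all genes. The AP-1 motif TGANTCA and the ETS motif CCGGAAGT were in 0 of the 8 genes, and in 7.82% and 3.23% of all genes. A gene was counted when the bases before any of its annotated starts held the motif, and Egr2 has several starts. Bases farther upstream than 250 were not searched. These are matches of letters and do not show binding.

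Array medians ran from 5.449 to 5.668 and within-array standard deviations from 1.46 to 1.823. Tagln2 had a log2 difference of 2.30 (SE 0.26, limma adjusted p = 0.00969) between aP2-Tagln2 and wild-type mice in subcutaneous tissue and of 1.60 (SE 0.31, adjusted p = 0.996) in visceral tissue. The 11 measured adipocyte markers averaged 9.80 to 11.2 on every subcutaneous array. The library labelled visceral of the female 60 had mesothelial markers at a mean of 5.27, under the 5.85 of its library labelled subcutaneous, and mammary markers at 7.31 against 4.39. In the other 11 mice the mesothelial mean was higher in the visceral library. Both libraries of mouse 60 were kept as labelled, and the depot comparisons that include it are also given without it. The genotype differences within a depot and the correlations between depots are printed with mouse 60 as labelled. In subcutaneous tissue T and B cell markers averaged 7.83 and 7.76 in mouse 106 and 8.07 and 7.90 in mouse 130, the highest of the 12 mice. In bulk tissue a change in the share of a cell type and a change of RNA per cell cannot be told apart.

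**Figure D1:**
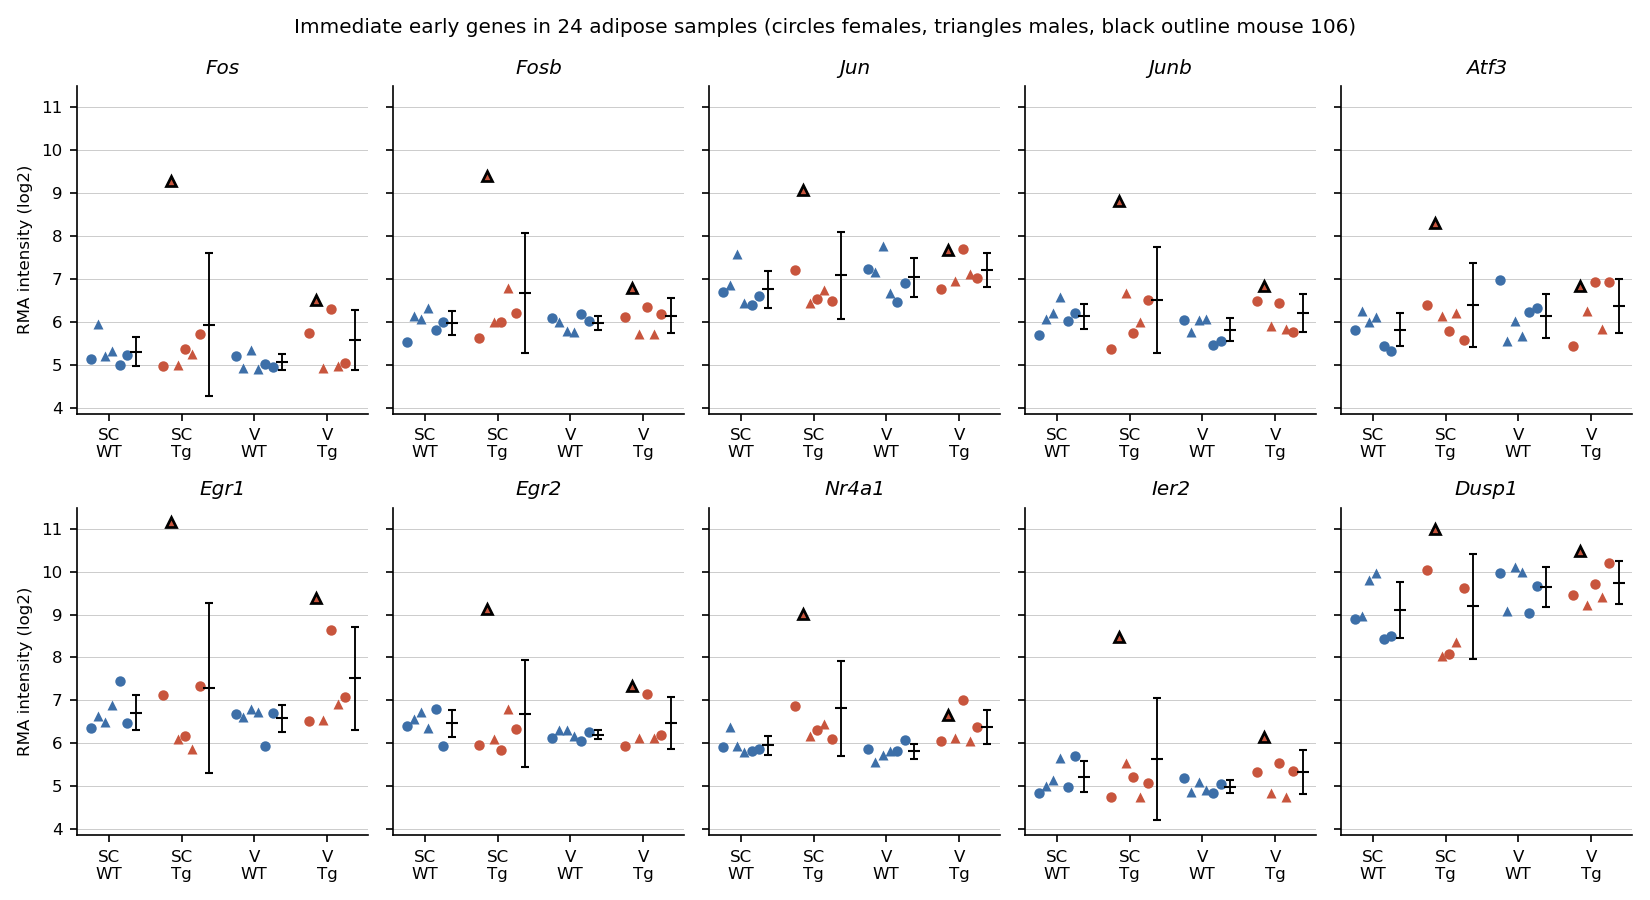
Log2 RMA intensity of each of the 10 genes (y axis) in the 24 samples, by depot (SC subcutaneous, V visceral) and genotype (WT wild-type, blue; Tg aP2-Tagln2, red). Circles are females, triangles males, the black outline marks mouse 106, and the bar beside each group is the mean ± SD of its 6 samples. Mouse 106 lies above the other 11 subcutaneous samples in all 10 panels, and levels of different genes are not comparable on the axis.

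Of the AP-1 genes Fos lay near the low-signal filter in most samples, while Fosb, Jun and Junb exceeded that level in all 24. Fos stood at 4.999 to 5.96 in the 6 wild-type subcutaneous samples (median 5.21) and at 4.91 to 5.35 in the 6 wild-type visceral ones (median 4.98). In aP2-Tagln2 mice it was 4.97, 5.37 and 5.72 in the subcutaneous samples of females 60, 135 and 173, and 9.28, 4.99 and 5.25 in those of males 106, 130 and 158. The visceral Fos levels of the same mice were 5.74, 6.29 and 5.04 in females and 6.51, 4.92 and 4.96 in males. Most Fos samples thus lie near 4.94 to 5.31, the level of the low-signal filter over the arrays, and 15 of 24 exceeded the filter level of their own array. No fold is therefore given for Fos.

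Fosb was at 5.52 to 6.32 in wild-type and 5.63 to 6.79 in aP2-Tagln2 subcutaneous samples other than mouse 106, which had 9.40. Its visceral levels spanned 5.71 to 6.35 in the 11 other mice and 6.78 in mouse 106. Junb, the AP-1 subunit of weaker transforming activity than Jun, was at 5.36 to 6.66 in the 11 other subcutaneous samples and 8.81 in mouse 106. In visceral tissue it was 5.46 to 6.49 in the 11 others and 6.84 in mouse 106.

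Jun, the main partner of Fos, was at 6.40 to 7.57 in the 11 other subcutaneous samples and 9.07 in mouse 106. In visceral tissue mouse 106 (7.68) was not apart, since the wild-type male 161 had 7.76 and the aP2-Tagln2 female 135 had 7.70. In subcutaneous tissue Atf3 was at 5.32 to 6.38 in the 11 others and 8.29 in mouse 106. In visceral tissue 4 mice lay close together at the top, the wild-type female 140 at 6.98, the aP2-Tagln2 females 135 and 173 at 6.93 and 6.92, and mouse 106 at 6.85.

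Egr1, which binds GC-rich promoters and is a direct target of SRF, had the widest range of the 10 genes. In wild-type mice it was 6.35, 7.45 and 6.48 in the subcutaneous samples of females 140, 169 and 170, and 6.62, 6.49 and 6.89 in those of males 159, 161 and 162. In aP2-Tagln2 mice the subcutaneous levels were 7.14, 6.16 and 7.33 in females and 11.15, 6.11 and 5.88 in males 106, 130 and 158. The other aP2-Tagln2 males were thus the lowest of the 12 mice, beside the highest. In visceral tissue Egr1 was 5.94 to 6.80 in wild-type mice, 6.52, 8.64 and 7.09 in aP2-Tagln2 females 60, 135 and 173, and 9.38, 6.53 and 6.91 in aP2-Tagln2 males. Egr2, its relative with roles in myelination and in fat cell differentiation, had 9.13 in mouse 106 against 5.85 to 6.79 in the 11 other subcutaneous samples. Its visceral levels were 7.33 in mouse 106, 7.15 in mouse 135 and 5.94 to 6.31 in the other 10.

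Nr4a1, a nuclear receptor raised by cyclic AMP in fat, was 5.91, 5.82 and 5.86 in subcutaneous tissue of wild-type females and 6.87, 6.31 and 6.11 in that of aP2-Tagln2 females. In males the levels were 6.39, 5.93 and 5.79 in wild-type mice and 9.01, 6.17 and 6.45 in aP2-Tagln2 mice. The subcutaneous groups of females did not overlap, and those of males did. In visceral tissue Nr4a1 was 5.88, 5.82 and 6.07 in wild-type females against 6.06, 7.02 and 6.37 in aP2-Tagln2 females, and 5.56, 5.72 and 5.83 in wild-type males against 6.66, 6.12 and 6.06 in aP2-Tagln2 males. Here the groups of males did not overlap, and those of females did by a small margin, through mouse 60 (library as labelled). For what share of all genes such groups separate is not given here, so these separations of Nr4a1 are descriptions.

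Ier2 lay near the filter level like Fos, at 4.75 to 5.70 in the 11 other subcutaneous samples and 8.47 in mouse 106. In visceral tissue it was 4.75 to 5.55 in the 11 others and 6.14 in mouse 106. Dusp1, whose product ends MAP kinase signals, varied more between mice, with a subcutaneous SD of 0.77 over the 11 mice other than 106 against 0.31 to 0.52 for the other 9 genes. In wild-type mice its subcutaneous level was 8.90, 8.43 and 8.50 in females and 8.96, 9.80 and 9.97 in males. In aP2-Tagln2 mice it was 10.05, 8.07 and 9.63 in females 60, 135 and 173 and 11.002, 8.03 and 8.36 in males 106, 130 and 158. In visceral tissue the 12 mice lay closer together, between 9.04 (169) and 10.49 (106).

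In the subcutaneous sample of mouse 106 all 10 genes had their highest level of the 12 mice, where 6.01% of the 13101 genes tested in that depot did. All 10 were also at least 1 log2 unit above the median of the other 11 mice, against 3.96% of genes. Egr1 was 25.1-fold above that median, Fosb 10.5-fold, Nr4a1 7.46-fold, Egr2 6.86-fold and Junb 6.64-fold. Jun was 5.53-fold, Atf3 4.92-fold and Dusp1 4.29-fold above it, and Fos and Ier2 were 4.06 and 3.39 above on the log2 scale. Ranked by this distance, Egr1 was the second and Fos the fifth of the 13101 genes, and the 10 genes all lay within the first 126. The gap to the next highest mouse ran from 0.95 log2 units for Dusp1 to 3.70 for Egr1, and the next highest was not the same mouse each time. It was mouse 60 (library as labelled) for Atf3, Nr4a1 and Dusp1, and mouse 169 for Egr1 and Egr2. For each of the other 5 genes it was another mouse.

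In the visceral sample of the same mouse the distances were smaller. Mouse 106 was the highest of 12 for 7 of the 10 genes, against 10.4% of 12706 genes, and was at least 1 log2 unit above the others' median for 4, against 0.889%. Those 4 were Egr1 (2.66, or 6.33-fold), Fos (1.496), Egr2 (1.15, or 2.23-fold) and Ier2 (1.08). The other 6 lay 0.60 to 0.93 log2 units above the median. Jun, Atf3 and Nr4a1 were higher in another mouse, as described for each above.

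**Figure D2:**
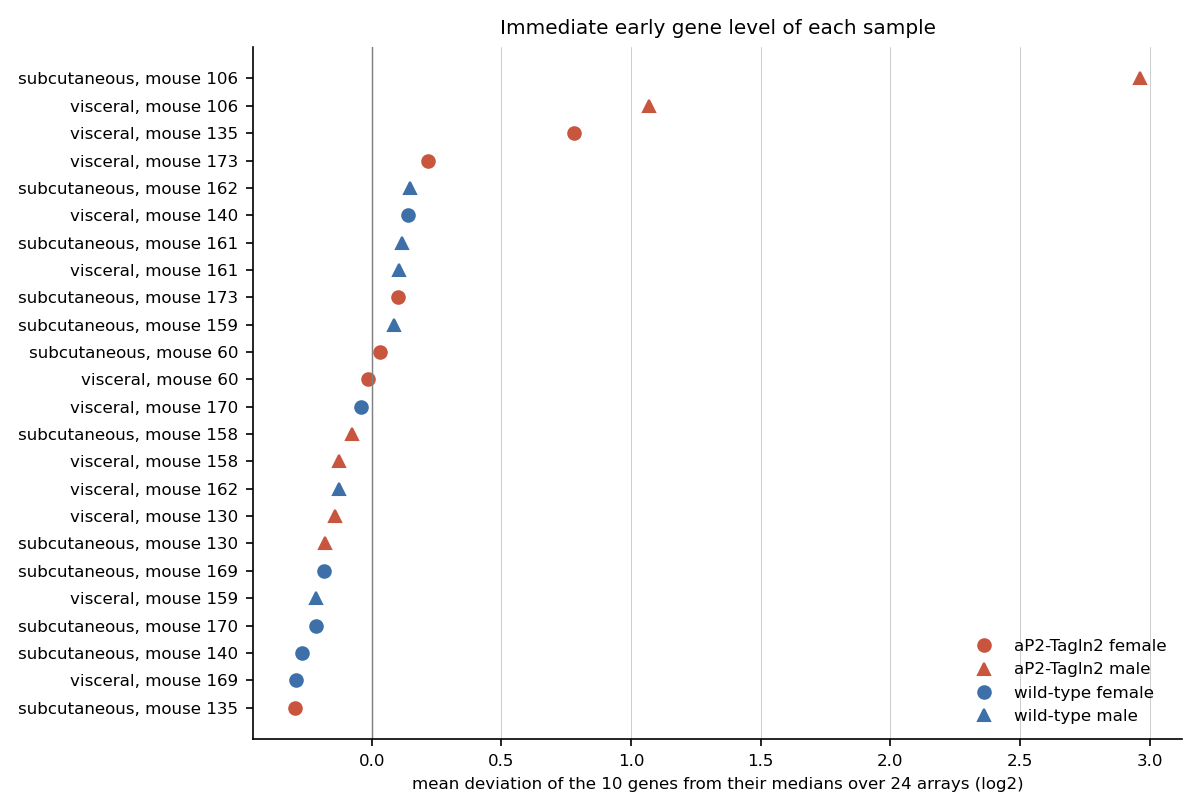
Mean over the 10 genes of the deviation from their own medians over 24 arrays (x axis, log2), for each sample in order. The subcutaneous (2.96) and visceral (1.07) samples of mouse 106 and the visceral sample of mouse 135 (0.78) stand to the right of the other 21, which lie between -0.30 and 0.22.

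A mean over the 10 genes of each sample's deviation from the gene's median gave 2.96 for the subcutaneous and 1.07 for the visceral sample of mouse 106. The visceral sample of the aP2-Tagln2 female 135 followed at 0.78, and the other 21 samples lay between -0.30 and 0.22. The lowest of all was the subcutaneous sample of mouse 135, so a high level in 1 depot did not go with a high level in the other in that animal. The plot of these means shows wild-type and aP2-Tagln2 samples of both sexes mixed over the lower range.

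Mouse 130, a male of the same genotype, also had high T and B cell marker means in subcutaneous tissue. The level of all 10 genes in mouse 106 exceeded that in mouse 130 by 2.14 (Junb) to 5.04 (Egr1) log2 units. In mouse 130 the mean deviation of the 10 genes was -0.18, within the -0.30 to 0.22 of the 21 samples described above. In visceral tissue the T and B cell marker means of mouse 106 were 4.85 and 4.85, inside the range of the other 11 mice (4.43 to 5.58 and 4.50 to 5.17). Its visceral macrophage marker mean, 8.35 over 7 genes, was the highest of the 12 mice, against 6.88 to 8.28 in the others. In subcutaneous tissue the macrophage mean was 8.14 in mouse 106 and 8.43 in mouse 130. The part of lymphocytes and macrophages in the levels of the 10 genes was not tested.

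The other gene lists place these values. Of 37 further immediate early and primary response genes tested, 21 were highest in mouse 106 in subcutaneous tissue and 14 were at least 1 log2 unit above the others' median (list median 0.84). Those farthest above, named by size after the values were seen, were the matricellular gene Ccn1 at 3.27, the mRNA decay factor Zfp36 at 3.03, the receptor Nr4a3 at 2.95 and the growth inhibitor Btg2 at 2.73. Of 10 heat shock and chaperone genes 7 were highest in mouse 106 (list median 0.84), with the co-chaperone Dnajb1 at 2.49 and Hsph1 at 1.76. Of 11 early cytokine and inflammatory genes 6 were (list median 0.79), with Il1b at 3.38, Ccl2 at 2.22 and the NF-kappaB inhibitor Tnfaip3 at 2.16. Il1b, Ccl2 and Tnfaip3 are also expressed by immune cells, whose markers were high in this sample, and their part in these values was not tested.

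The RNA levels of the kinases and factors that act on these promoters did not stand out in the same way. Whether these pathways were active was not tested. Of 18 tested components of the ERK, p38, JNK, SRF and CREB pathways 2 were highest in mouse 106, against 6.01% of all genes. They were the SRF coactivator gene Mrtfa (0.61 above the others' median) and the CREB relative Atf1 (0.26), and the list median was 0.13. Srf itself was 0.84 above the median, below the highest of the other mice. Hypoxia genes had a median of -0.03 (1 of 15 highest in mouse 106), glucocorticoid response genes 0.03 (3 of 12) and circadian clock genes -0.27 (1 of 15). Genes of the ATF4 stress branch had a median of -0.34 (1 of 9) and cytoskeletal targets of SRF and MRTF one of -0.29 (0 of 14).

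In visceral tissue of mouse 106 the further immediate early genes and the heat shock genes were above the others' median by less. Of 36 further immediate early genes 15 were highest in this mouse (median 0.49). Farthest above the median were Ccn1 at 1.63, although another mouse was higher, and Gadd45g and Nr4a3, both at 1.17. Of 10 heat shock genes 5 were highest (median 0.42), with Hspb1, the small heat shock protein gene, at 1.05. Other lists lay higher here than in subcutaneous tissue, with medians of 0.81 for glucocorticoid response genes (4 of 12 highest in mouse 106) and 0.41 for circadian clock genes (1 of 15). Adipocyte markers of mouse 106 averaged 9.98 in subcutaneous tissue, within the 9.80 to 11.2 of the others, and 11.1 in visceral tissue, within 10.6 to 11.2.

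**Figure D3:**
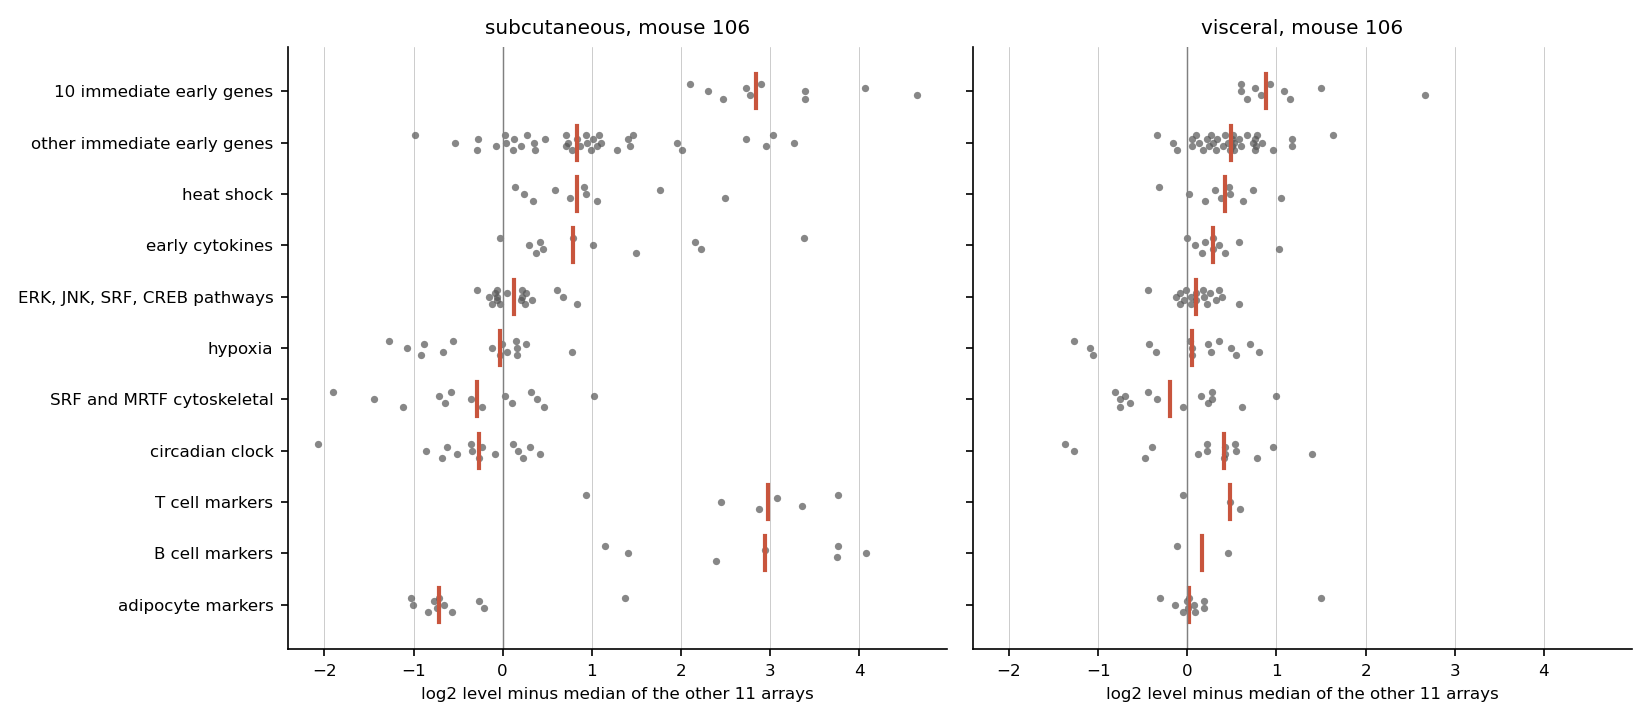
Distance of each tested gene in mouse 106 from the median of the other 11 arrays of the depot (x axis, log2), by gene list, with subcutaneous tissue on the left and visceral on the right; each grey point is a gene and the red bar is the list median. The 10 immediate early genes have a median of 2.84 in subcutaneous and 0.88 in visceral tissue, and T and B cell markers are far to the right in subcutaneous tissue alone.

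The visceral sample of mouse 135 was among the 3 highest of 12 for 9 of the 10 genes, against 25.3% of 12706 genes. It was the highest for Nr4a1 (7.02), the second for Fos, Fosb, Jun, Egr1, Egr2, Atf3 and Ier2, the third for Junb, and the sixth for Dusp1 (9.70). Against the 10 mice other than 106, Egr1 was 3.84-fold and Nr4a1 2.07-fold above the median. This sample also had the highest mean of smooth muscle and pericyte markers, 9.38 against 7.19 to 9.01 in those 10 mice, and of cytoskeletal targets of SRF and MRTF, 9.77 against 7.67 to 9.03. Its preadipocyte and fibroblast marker mean was also the highest, 9.28 against 7.77 to 8.96. Their part in the levels of the 10 genes was not tested. Its heat shock genes were in the 3 highest for 6 of 10, and its T and B cell marker means (4.54 and 4.51) were low.

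The genotype comparison in subcutaneous tissue asked whether the 10 genes depend on the transgene when the sexes are averaged. By limma 0 of the 10 were called (adjusted p under 0.05), against 0.00763% of all genes tested, and 1 had an unadjusted p under 0.05. All 10 had a higher mean in aP2-Tagln2 mice, as did 49.4% of all genes, with a median difference of 0.49 on the log2 scale against -0.0022 over all genes. Without mouse 106 the median was -0.08. Nr4a1 had the largest difference, 6.82 ± 1.11 (SD, n = 6) against 5.95 ± 0.22 (n = 6), or 0.87 (SE 0.39, limma unadjusted p = 0.0447, adjusted p = 1). Without mouse 106 it was 0.42 (SE 0.18, adjusted p = 1). Fosb was at 0.70 (SE 0.43, adjusted p = 1) with mouse 106 and at 0.19 without it.

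In subcutaneous tissue of males 0 of 10 genes were called by limma, against 0% of all genes, and 0 had an unadjusted p under 0.05. The median difference was 0.92, against -0.03 over all genes, and 9 of the 10 means were higher in aP2-Tagln2 males, as were 46.5% of all genes. Fosb was at 1.22 (SE 0.61), Nr4a1 at 1.17 (SE 0.55, adjusted p = 0.391) and Egr1 at 1.04 (SE 1.01). Fos was at 1.01, Ier2 at 0.98, Junb at 0.86, Egr2 at 0.79, Atf3 at 0.75 and Jun at 0.46. Dusp1 was the exception at -0.45 (SE 0.67). These values rest on mouse 106, and leaving it out gave a median of -0.12. That mouse was the highest for all 10 genes, so every difference had to fall. Fos became -0.37, Jun -0.36, Egr1 -0.68, Egr2 -0.11 and Ier2 -0.13, while the differences that stayed above 0 were smaller, at 0.22 for Fosb, 0.27 for Nr4a1, 0.04 for Junb and 0.05 for Atf3. Dusp1 went to -1.38 (SE 0.49, limma unadjusted p = 0.0157, adjusted p = 0.765), with 8.03 and 8.36 in the remaining aP2-Tagln2 males and 8.96 to 9.97 in wild-type males. Since mouse 106 was left out with its values known, these p-values are descriptions. With all males kept, T and B cell markers were higher in aP2-Tagln2 males (median differences 2.37 and 2.49). Of 11 adipocyte markers 10 were lower (median -0.68). The part of these cell types in the levels of the 10 genes was not tested.

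**Figure D4:**
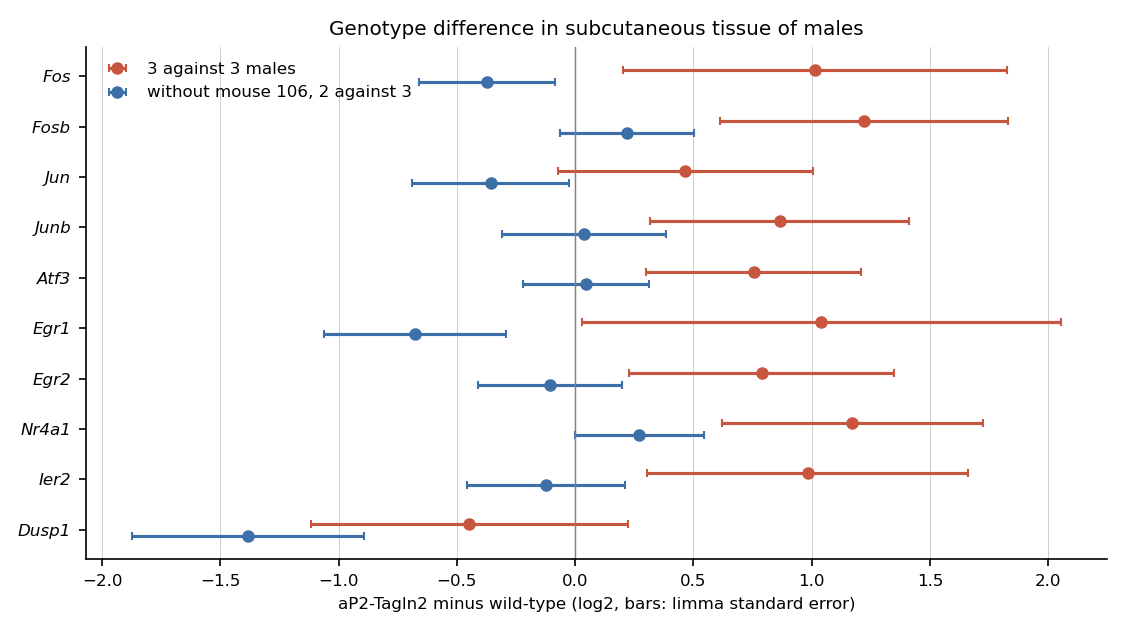
Log2 difference aP2-Tagln2 minus wild-type in subcutaneous tissue of males (x axis) for each gene, with all 6 males (red) and without mouse 106 (blue); bars are limma standard errors. The difference of Fos moves from 1.01 to -0.37 and that of Egr1 from 1.04 to -0.68. All 10 blue points lie left of the red ones, which was fixed in advance because mouse 106 had the highest level for all 10 genes.

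Weighting each array by its spread changed this picture the other way. With limma's array weights, whose estimate had not converged, 9 of the 10 genes were called in subcutaneous tissue of males, against 33.4% of all genes in that fit. The count was 7 with the sexes averaged, against 4.43%, and 9 in the interaction with sex, against 42.9%. These weights gave 3.66 to mouse 106, 0.577 to mouse 130 and 0.139 to mouse 158, so the mean of the group was mostly that of mouse 106. Egr1 then had a difference of 3.58 (SE 0.80, adjusted p = 0.0042) in males.

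In subcutaneous tissue of females 0 of 10 genes were called by limma, against 0.00763% of all genes, and 0 had an unadjusted p under 0.05. The median difference was 0.17 against 0.01 over all genes. Nr4a1 was at 0.56 (SE 0.55, adjusted p = 1). The interaction with sex, taken as the female minus the male genotype difference, had 0 of 10 genes called, against 0% of all genes, and 0 at an unadjusted p under 0.05. Its median was -0.85 with mouse 106 and 0.32 without it, against 0.06 over all genes. Egr2 was at -1.12 (SE 0.79), which became -0.22 without mouse 106. Dusp1 was at 1.09 (SE 0.95, adjusted p = 0.666), which became 2.02 (SE 0.66, adjusted p = 0.551) without mouse 106.

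In visceral tissue with the sexes averaged 0 of 10 genes were called by limma, against 0% of all genes, and 1 had an unadjusted p under 0.05. All 10 means were higher in aP2-Tagln2 mice, as were 52.7% of all genes, and the median was 0.31 against 0.01. It was 0.11 without mouse 106 and 0.03 without mice 106 and 135. Nr4a1 was 6.38 ± 0.39 (SD, n = 6) in aP2-Tagln2 and 5.81 ± 0.17 (n = 6) in wild-type mice, a difference of 0.57 (SE 0.16, limma unadjusted p = 0.00388, adjusted p = 0.996). It was 0.47 (SE 0.15) without mouse 106 and 0.34 (SE 0.11) without mice 106 and 135, with adjusted p = 0.998 and 1. Egr1 was 7.51 ± 1.20 (n = 6) against 6.58 ± 0.32 (n = 6), a difference of 0.93 (SE 0.46, adjusted p = 0.996), and 0.18 without both mice.

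By sex, the visceral comparison had 0 of 10 genes called in females and 0 in males by limma, each against 0% of all genes, and 1 in each had an unadjusted p under 0.05. That gene was Nr4a1 in both, at 0.56 (SE 0.23, limma unadjusted p = 0.0282, adjusted p = 0.998) in females and 0.57 (SE 0.23, unadjusted p = 0.0256, adjusted p = 1) in males. The medians of the 10 genes were 0.34 in females and 0.28 in males, and the male median was -0.13 without mouse 106. Egr1 was at 0.97 (SE 0.65) in females, where mouse 135 had 8.64, and at 0.89 (SE 0.65) in males, where mouse 106 had 9.38. The visceral interaction with sex had 0 of 10 genes called, against 0% of all genes, and 0 at an unadjusted p under 0.05. Its median was 0.09, and 0.49 without mouse 106. Atf3 lay farthest from 0, at -0.65 (SE 0.54).

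The nearest lists gave no calls for genotype either. Of the further immediate early genes 0 of 37 were called in subcutaneous tissue of males (20 with a higher mean in aP2-Tagln2 mice, median 0.03), and the one of lowest p was the stress gene Ier5 at 0.98 (SE 0.27, limma adjusted p = 0.277). Klf10 was at -0.72 (SE 0.23) and the matricellular gene Ccn2 at -0.83 (SE 0.27), both with adjusted p = 0.282. In visceral tissue 0 of 36 were called and 29 had a higher mean (median 0.13), with Gadd45g at 0.65 (SE 0.23) and the kinase Sik1 at 0.38 (SE 0.13), adjusted p = 0.996 for both. Of the 18 pathway components 0 were called in either comparison, with the p38 kinase gene Mapk14 at 0.50 (SE 0.22, adjusted p = 0.366) and Creb1 at 0.62 (SE 0.31, adjusted p = 0.415) in males. Of 10 heat shock genes 0 were called, with Dnajb1 at 0.92 (SE 0.57) and the inducible Hsp70 gene Hspa1b at 0.61 (SE 0.29) in subcutaneous tissue of males. All values of these lists include mouse 106, in which Dnajb1 was far above the other mice. Their values without it are not given here.

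Depot was compared within each genotype as visceral minus subcutaneous. In wild-type mice 0 of the 10 genes were called by limma, against 21.9% of all genes, and 2 (Junb and Dusp1) had an unadjusted p under 0.05. The median was -0.14 against 0.08 over all genes. Dusp1 was 9.64 ± 0.47 (SD, n = 6) in visceral and 9.09 ± 0.65 (n = 6) in subcutaneous tissue, a difference of 0.54 (SE 0.22, adjusted p = 0.0949). It was higher in the visceral sample of 6 of 6 wild-type mice, by 0.0056 (mouse 162) to 1.16 (mouse 170). With the mouse as a replicate block Dusp1 was the 1 gene of the 10 called (0.54, SE 0.12, limma adjusted p = 0.0135). In that fit 18.1% of all genes were called. Jun, at 0.28 (SE 0.21, adjusted p = 0.365), was also higher in the visceral sample of 6 of 6, by 0.077 (mouse 169) to 0.55 (mouse 140). Over all genes 60.6% had a higher visceral mean, and the share higher in 6 of 6 mice is not given here. Junb was at -0.31 (SE 0.14, adjusted p = 0.125) and Atf3 at 0.31 (SE 0.15, adjusted p = 0.136).

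In aP2-Tagln2 mice 0 of 10 were called by limma, against 1.09% of all genes, and 0 had an unadjusted p under 0.05. That background itself moved from 143 genes to 0 without mouse 106 and to 1705 without mouse 60, and it was 0 with the mouse as a replicate block, 1 with centred arrays, 1 without the low-signal filter and 3 with a second quantile normalization. The median of the 10 genes was -0.26, 0.05 without mouse 106 and -0.17 without mouse 60. Dusp1 was at 0.55 (SE 0.49, adjusted p = 0.497), at 0.82 (SE 0.34, adjusted p = 0.262) without mouse 106 and at 0.83 (SE 0.56) without mouse 60. Fosb was at -0.53 (SE 0.46), at -0.20 without mouse 106 and at -0.58 without mouse 60. The genotype by depot interaction had 0 of 10 genes called, against 0% of all genes, and 0 at an unadjusted p under 0.05. Its median was -0.09, 0.26 without mouse 106 and -0.03 without mouse 60. Fosb, farthest from 0, was at -0.52 (SE 0.50), and at -0.57 (SE 0.55) without mouse 60.

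**Figure D5:**
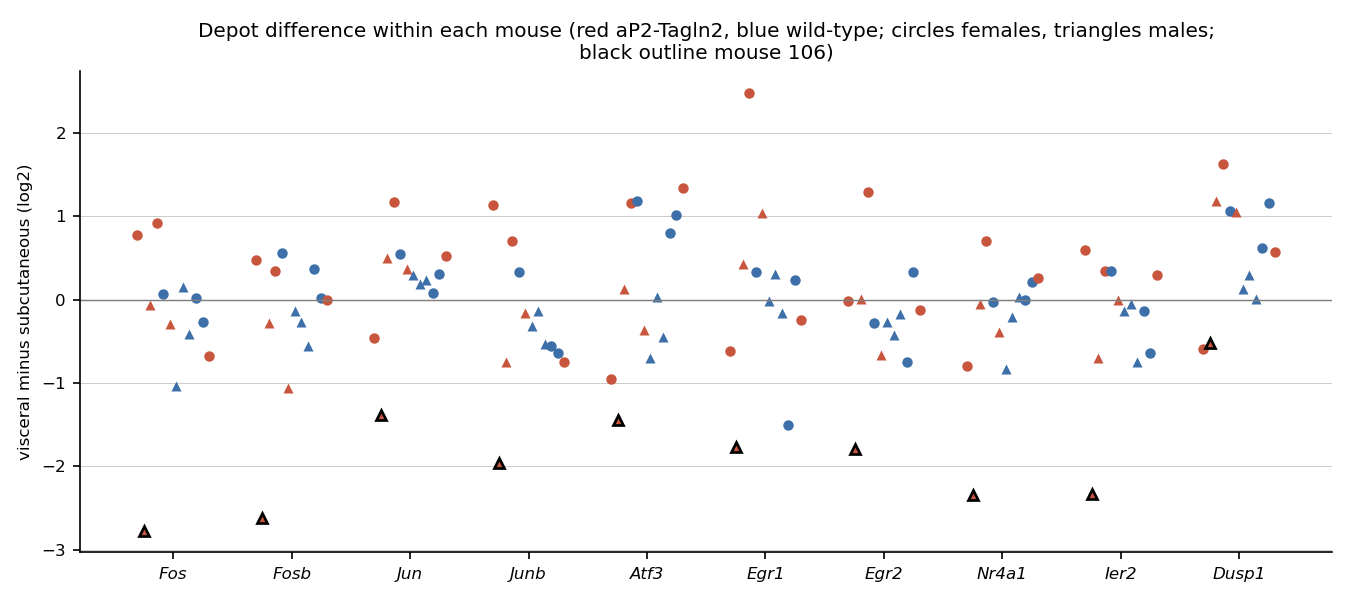
Visceral minus subcutaneous log2 level of each gene in each of the 12 mice (y axis), with blue wild-type and red aP2-Tagln2 mice, circles females, triangles males and the black outline mouse 106. All 10 differences are negative in mouse 106, from -0.52 (Dusp1) to -2.77 (Fos), and those of Dusp1 and Jun are positive in 10 of the 12 mice.

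Within single mice, Dusp1 and Jun were higher in the visceral sample of 10 of 12, in each case with mice 106 and 60 as the exceptions. The share of all genes with such a count is not given here. Atf3 was higher there in 7 mice, Egr1 in 6, Fos, Fosb and Ier2 in 5, Nr4a1 in 4, and Junb and Egr2 in 3. In mouse 106 all 10 genes were lower in the visceral sample. In the 11 other mice the mean difference was 0.64 ± 0.65 (SD) for Dusp1, 0.34 ± 0.39 for Jun and between -0.15 and 0.29 for the other 8 genes. Without mouse 60, whose depot markers go against its labels, Dusp1 and Jun were higher in the visceral sample of 10 of 11 mice. Of the other counts, those of Fos, Fosb and Ier2 became 4, that of Junb became 2, and the rest were the same. In the 10 mice other than 60 and 106 the mean difference was 0.77 ± 0.53 for Dusp1, 0.42 ± 0.30 for Jun and between -0.28 and 0.41 for the other 8.

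In wild-type mice the depot calls of the related lists are read against the 21.9% of all genes called, and those of the further immediate early genes, pathway components and heat shock genes lay under it. Of 36 further immediate early genes 1 was called, the kinase gene Plk2, which fell by 1.11 in visceral tissue (SE 0.15, limma adjusted p = 0.000451). Of 18 pathway components 2 rose, Rps6ka3 (0.89, adjusted p = 0.00403) and the JNK gene Mapk9 (0.47, adjusted p = 0.0257), and 1 fell, the MSK1 gene Rps6ka5 (-0.37, adjusted p = 0.0253). Of 10 heat shock genes 2 rose, Hspb1 (0.75, adjusted p = 0.0112) and Hsp90aa1 (0.45, adjusted p = 0.02). Of 14 cytoskeletal targets of SRF and MRTF 8 rose and 0 fell, with a median of 0.53. The smooth muscle and pericyte marker means of the wild-type mice spanned 6.67 to 7.60 in subcutaneous and 7.22 to 9.01 in visceral tissue, and their part in these calls was not tested.

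Sex was compared in wild-type mice as female minus male. In subcutaneous tissue 0 of 10 genes were called by limma, against 0.435% of all genes, and 0 had an unadjusted p under 0.05. The median was -0.34 against -0.02 over all genes, and 9 of 10 means were lower in females, while 48.5% of all genes had a higher mean there. T cell, B cell and mammary markers went the other way, higher in females (median differences 2.12, 2.54 and 3.27), and 8 of 8 endothelial markers were lower. The part of these cell types in the levels of the 10 genes was not tested. Dusp1 was at -0.97 (SE 0.67, adjusted p = 0.481), with all 3 females under all 3 males. In visceral tissue 0 of 10 were called, against 0.315% of all genes, and 0 had an unadjusted p under 0.05, with a median of -0.06. Atf3 was at 0.77 (SE 0.38, adjusted p = 0.571), and its levels of 6.24 to 6.98 in females did not overlap with 5.56 to 6.02 in males. For what share of all genes the sexes separate in this way is not given here. The separations of Dusp1 and Atf3 are therefore descriptions.

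Whether the genes rank the mice alike was asked with 45 correlations per depot. In subcutaneous tissue the median Pearson r over 12 mice was 0.85 and the median Spearman rho 0.25, and all 45 r were positive. After Benjamini-Hochberg adjustment over the 45 pairs, 2 passed the permutation test for r and 0 for rho. Leaving out the 2 mice farthest from the median on the x axis gave a median r of 0.01, and leaving out mouse 106 one of 0.07, with 26 of 45 positive and 0 past the test. The subcutaneous relation rests on mouse 106. In visceral tissue the median r was 0.64 and rho 0.45, with 21 pairs past the test for r and 0 for rho. Without mouse 106 the median r was 0.52, 44 of 45 were positive and 0 passed. Leaving out the 2 farthest mice gave a median of 0.44 from the 12 mice. From the 11 mice without 106 it gave 0.29, with 35 of 45 positive. The share of positive r among pairs of other genes is not given here.

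A gene's subcutaneous level was also set against its visceral level over the 12 mice. The 10 Pearson r ran from 0.02 to 0.71 (median 0.58, median rho 0.09), and 0 passed the permutation test after adjustment. Without mouse 106 the median r was -0.26 and 3 of 10 were positive, so the positive median rests on that mouse. The 3 were Dusp1 (0.69 with mouse 106, 0.53 without), Jun (0.58 and 0.48) and Nr4a1 (0.48 and 0.23).

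The genes most like the 10 members were found by the Pearson r between their levels and the members' mean deviation, both taken as deviations from the 8 group means over 24 arrays, among 13678 genes. They were Zfp36 (0.88), the antiproliferative gene Btg2 (0.87), the hyaluronan-binding gene Tnfaip6 (0.87), Phlda1 (0.86), Dnajb1 (0.86), Ccn1 (0.85), Ugdh (0.85), Ier3 (0.84), the AP-1 family gene Jdp2 (0.83) and Midn (0.82). These values share the arrays of mouse 106 and are descriptions. Over the 22 arrays without mouse 106 the 10 genes of highest r were others, led by the collagen prolyl hydroxylase subunit P4ha2 (0.90), the integrin Itga5 (0.86), Ampd3 (0.85), Apbb3 (0.85) and Cped1 (0.84). Those values share the visceral array of mouse 135, whose mean deviation was 0.78, and are descriptions too. Each member's own r with the mean of the other 9 was 0.79 (Dusp1) to 0.95 (Egr1) with mouse 106 and 0.02 (Ier2) to 0.76 (Egr1) without it.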

How the data were processed

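The deposited values come from the authors' RMA processing (background correction, normalization between arrays, probe summaries), per the submitters' processing notes, which list limma too and give no versions. Per the labels, total RNA went through the GeneChip WT PLUS kit. That the deposited intensities are on a log2 scale was read from their range, 1.678 to 13.08. The array's genome build is not given in the sources used here, so coordinates are RefSeq's. Arrays have no read depth, and their number limits the precision.

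Of 22142 probe sets 19527 name 1 gene symbol, and these cover 19494 genes. For the 33 genes with several probe sets the one with the highest mean was used. Genes entered a fit when at least 3 of its arrays showed them over that array's 40th percentile. limma 3.58.1 in R 4.3.3 (lmFit, eBayes) fitted a mean per group without a term for the mouse, and Benjamini-Hochberg adjustment ran over all genes of each of 13 comparisons, with a threshold of 0.05. Genotype and sex were fitted over the 12 arrays of a depot, depot over the 12 of a genotype, and the genotype by depot interaction over all 24. Correlations were tested by 100000 two-sided permutations.

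Both samples of a number are 1 animal, which pairs them. Deviations of the 2 arrays of a mouse from their group means correlated between -0.259 and 0.196, and 5 of 12 exceeded 0.1. The replicate block was the mouse as a fixed term in depot comparisons, and elsewhere a random term with a consensus correlation of -0.0281. Alternatives were no filter, a stricter filter at the 60th percentile, a second quantile normalization, centring arrays on the median, eBayes with trend and robust set, array weights, every probe set, the replicate block, and leaving out each mouse. A fit without mice 106 and 135 together, and within-mouse depot differences without mouse 60, were added after the data were seen. The fits were tested on simulated data.

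The members, the gene lists and markers were chosen with earlier results of these data known. The 10 members are always named. From other lists the genes of lowest p are named, or for mouse 106 those farthest above, and the 10 genes most like the members by r.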

Additional observations from a re-analysis of the deposited data

Results flagged for a closer look

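Dixon's ratio, the gap of an extreme sample to its nearest neighbour over the range of its group of 6, was computed in 44 sets of 6 samples and passed its 95% critical value in 12, of which 9 were sets with mouse 106. That mouse was chosen with its values known, so its ratios are a description and no test. In subcutaneous tissue of aP2-Tagln2 mice the extreme sample was the high one of mouse 106 for 8 genes, with ratios of 0.825 for Fos, 0.786 for Ier2, 0.738 for Nr4a1, 0.725 for Egr1, 0.714 for Egr2, 0.707 for Jun, 0.704 for Atf3 and 0.694 for Fosb. Its mean deviation over the 10 genes had a ratio of 0.879. Junb and Dusp1 did not pass in that group. In subcutaneous tissue of wild-type mice the male 159 was far above the others for Fos (0.663) and Nr4a1 (0.777), and in visceral tissue of wild-type mice the female 169 was far below them for Egr1 (0.770). These 3 are to be read against the about 1 in 20 sets that chance passes. The subcutaneous sample of mouse 159 also had the highest preadipocyte and fibroblast marker mean of the 12 mice (9.69). Its skeletal muscle markers averaged 8.28, within the 4.54 to 9.50 of the 12 mice. The part of these cell types in its levels was not tested. None of the 10 genes was called in an interaction of genotype with sex or depot in the fits without array weights.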

How the results depend on the processing

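The count of 0 called genes held in 269 of 273 alternatives over the 13 comparisons. The others were the replicate block for depot in wild-type mice (1 gene, Dusp1) and array weights, with 7 genes for genotype in subcutaneous tissue, 9 in its males and 9 for its interaction with sex. The replicate block changed no other count of called members. Of 649 alternative values of printed log2 differences 13 turned their sign. Leaving out mouse 106 did so in subcutaneous tissue of males for Fos (-0.37), Jun (-0.36), Egr1 (-0.68), Egr2 (-0.11) and Ier2 (-0.13), with the same values without mice 106 and 135. Over the mice left out one at a time these differences ran from -0.37 to 1.77, -0.36 to 0.95, -0.68 to 1.96, -0.11 to 1.41 and -0.13 to 1.73. Dusp1 there ran from -1.38 to 0.10, the highest without mouse 130, and was 0.76 with array weights. Fosb in the genotype by depot interaction was 0.10 with array weights. The counts of related pairs past the test, 2 in subcutaneous and 21 in visceral tissue, were 0 and 0 without mouse 106. The mean deviation of the subcutaneous sample of mouse 159 moved from 0.086 to 0.16 with a second quantile normalization and to 0.022 with centred arrays, and that of mouse 162 from 0.15 to 0.19. Apart from fewer arrays where mice were left out, the cause was not tested. With 3 arrays a group, and Fos and Ier2 near the filter level, the differences in subcutaneous tissue of males lay within 2 standard errors of 0 for all members but Fosb and Nr4a1.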
